A study of Mus musculus with 9 samples.

Results

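Cortical neurons of P301S tau mice that had received the Cdk5i peptide were compared with those of untreated wild-type mice, 3 libraries against 3, chosen by their titles out of 9 libraries in the series. The libraries hold total RNA of cortical nuclei, sorted for NeuN as a neuronal marker, from mice 7 to 9 months old. The treated mice carried the P301S tau transgene and received Cdk5i peptide by injection into the abdomen at 20 mg per kg every other day, and the wild-type mice carried no transgene and received no peptide. The remaining 3 libraries came from P301S mice given a scrambled peptide in the same way, and they entered the fit and are set beside the main comparison. Genotype and injection or peptide cannot be told apart in a comparison with these wild-type mice. The labels name neither the transgenic line nor the promoter that drives tau, and they do not say that each library came from its own animal, so the p-values rest on the spread of these samples alone, and that spread may be technical.

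Tau is a protein that binds and steadies microtubules in axons. The P301S change, found in inherited frontotemporal dementia, lowers this binding and lets tau aggregate. Cdk5 is a kinase of neurons that works with the activator p35. Calpain cleaves p35 to p25, and Cdk5 bound to p25 phosphorylates tau beyond its normal sites, which is why a peptide that blocks Cdk5 is of interest in tau mice. The comparison made here asks which genes still set treated transgenic neurons apart from wild type.

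Few genes did. Of 16046 genes tested, 12 (0.0748%) differed at an adjusted p below 0.05 in edgeR's quasi-likelihood test, 7 of them higher (0.0436%) and 5 lower (0.0312%) in the treated P301S neurons. The higher genes were Mob3b, Grik5, Pdzd2, the pseudogene Lamr1-ps1, the prion-locus gene Prn and the long non-coding RNAs 2610035D17Rik and 4930590L14Rik. The lower genes were Unc5c, Gas2, Ercc6l2, Zfp990 and the antisense RNA Gm27008. An unadjusted p below 0.05 was reached by 1770 genes (11%), 919 higher (5.73%) and 851 lower (5.3%). In 2608 genes (16.3%) the 3 treated libraries lay wholly above or wholly below the 3 wild-type libraries, above in 8.03% of all genes and below in 8.22%. Of the 12, Lamr1-ps1 and Mob3b passed in every alternative that gave them an adjusted p. The other 10 lost the call in at least 1 fit with a single library left out. Those fits called 2 to 14 genes, while DESeq2 called 114 and edgeR without a low-count filter 408. None of the 12 changed sign.

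**Figure D1:**
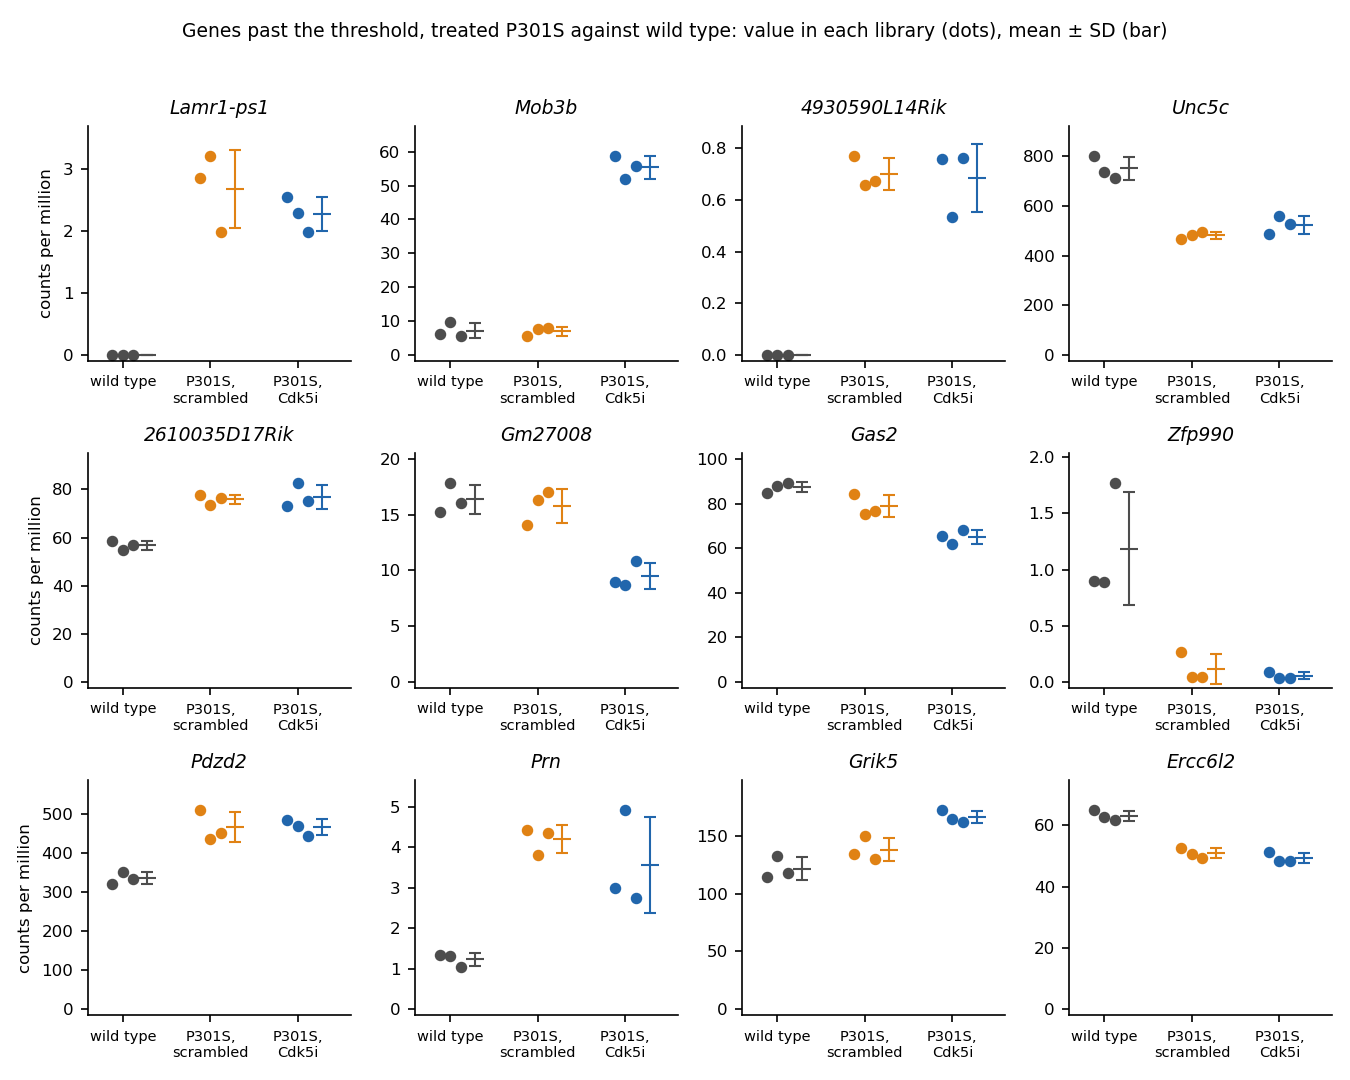
Counts scaled to a common library total, CPM (vertical axes, from 0), of the 12 genes past the threshold in each of the 9 libraries, with the mean and SD of each group of 3 beside the dots. In every panel the dots of wild type and of Cdk5i-treated P301S do not overlap, and for Mob3b, Grik5 and Gm27008 the scrambled-peptide dots overlap with wild type.

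Libraries held 21704644 to 26715938 counts in these 6 samples. Values below are CPM, a gene's counts scaled to a common library total with edgeR's TMM method. They compare 1 gene between libraries and are not levels per length. The neuronal sort showed in its marker. Rbfox3, the gene of NeuN, stood at 1105 to 1309 CPM in wild type and at 1241 to 1556 in treated P301S. Markers of other cells were uneven. In these 6 libraries the microglial gene Tmem119 had at most 5 counts and the endothelial gene Cldn5 at most 3. Microglial Cx3cr1 had 26 to 40 counts, endothelial Pecam1 10 to 22 and the astrocyte gene Aqp4 18 to 39. The oligodendrocyte gene Mbp stood at 56.3 to 69.5 CPM in wild type and at 59.5 to 107 in treated P301S. Ribosomal RNA took 1.13 to 3.06% of counts in wild type and 0.771 to 1.57% in treated P301S. In sorted nuclei pooled for RNA, fewer cells of a type and less RNA per cell cannot be told apart.

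To show where the called genes start, promoter sequences from RefSeq (GRCm38.p6) were matched by symbol for 10 of the 12, and in 7 of these the RefSeq start lies at or before the gene's start in the files. Of the 7, 4 examples are printed, Mob3b, Prn and Grik5 from the higher genes and Ercc6l2 from the lower, picked after their values were seen, as the 250 bases before the start, 5′ to 3′ on the gene's strand. Capitals mark matches on either strand to the GC box GGGCGG, the TATA box TATAAA, the cyclic AMP response element TGACGTCA, its shorter form TGACG (which lies inside it) or the E box CACGTG.
Mob3b, chr4:35157485-35157734, minus strand: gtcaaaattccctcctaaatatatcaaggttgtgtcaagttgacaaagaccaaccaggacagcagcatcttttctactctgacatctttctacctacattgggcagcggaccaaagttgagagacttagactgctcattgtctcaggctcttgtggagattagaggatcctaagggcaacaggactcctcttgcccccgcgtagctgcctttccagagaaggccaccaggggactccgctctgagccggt
Prn, chr2:131909678-131909927, plus strand: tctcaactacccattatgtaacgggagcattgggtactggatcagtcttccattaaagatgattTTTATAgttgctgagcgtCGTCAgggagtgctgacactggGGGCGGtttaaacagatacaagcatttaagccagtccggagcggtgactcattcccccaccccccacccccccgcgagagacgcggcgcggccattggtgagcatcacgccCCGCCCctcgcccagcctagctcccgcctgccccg
Grik5, chr7:25072370-25072619, minus strand: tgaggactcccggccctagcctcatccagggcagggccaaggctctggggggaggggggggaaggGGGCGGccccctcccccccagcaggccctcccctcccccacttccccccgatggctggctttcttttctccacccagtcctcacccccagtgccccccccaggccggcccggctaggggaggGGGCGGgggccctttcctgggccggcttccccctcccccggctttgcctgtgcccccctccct
Ercc6l2, chr13:63814990-63815239, plus strand: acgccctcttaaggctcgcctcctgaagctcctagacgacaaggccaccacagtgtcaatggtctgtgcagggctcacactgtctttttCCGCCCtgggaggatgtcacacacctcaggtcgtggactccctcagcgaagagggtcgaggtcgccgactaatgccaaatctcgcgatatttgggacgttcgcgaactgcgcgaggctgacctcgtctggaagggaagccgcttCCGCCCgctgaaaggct
The Mob3b window held none of these letters and had a GC content of 50.4% with 5 CpG pairs, near the medians of 52.4% and 6 over 32851 promoters. Grik5 had the highest GC content of the 4, 75.2%, and 2 GC boxes, while the Gas2 window, which is not printed, had 80.4%. Ercc6l2 also held 2, and the Prn window, which is also that of the prion protein gene Prnp, held 2 GC boxes, 1 TATA box and 1 TGACG. A GC box was present in 6 of the 10 promoters and in 32.7% of all promoters of this length. The 10 include a Gm27008 window (chr3:106981616-106981865, minus strand) that lies inside the gene, whose start in the files is at 107093894. TATAAA was present in 3 of 10 against 12.4%, TGACG in 2 against 17.8%, and the full response element and the E box in 0 of 10 against 1.55 and 6.02%. These are matches of letters and not shown sites.

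Mob3b showed the largest rise among the called genes with counts in every library. It encodes a MOB family protein, a family of small adaptors that bind and activate kinases of the Hippo and NDR pathways, and lies at chr4:34949074-35157484. It stood at 6.11, 9.68 and 5.62 CPM in wild type and at 58.7, 52.0 and 55.7 in Cdk5i-treated P301S. The 3 scrambled-peptide libraries, at 5.51, 7.54 and 8.0, overlapped with wild type. The rise over wild type was 7.77-fold (log2 fold change 2.96 ± 0.20 SE, edgeR adjusted p = 0.000599). The difference between the peptides was itself tested: it was 2.98 on the log2 scale (95% interval 2.55 to 3.42, edgeR adjusted p = 0.000983). Mob3b was the 1 gene of the 12 to pass that test. In the comparison of the peptides 2 of 16046 genes passed (0.0125%).

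No other MOB or Hippo gene passed. Of 17 tested members of a list of MOB and Hippo genes, 13 had a log2 fold change above 0 (all genes: 48.8%). The median was 0.09 against -0.01 over all genes, and Mob3b was the 1 that passed. Its close relative Mob3c, at 0.995, 1.59 and 0.998 CPM in wild type and at 2.45, 2.44 and 2.48 in treated P301S, did not overlap between groups. Its log2 fold change of 1.04 ± 0.22 did not pass (edgeR adjusted p = 0.121), and it was at 2.04 to 2.28 CPM with the scrambled peptide. On the log2 scale Tead1, a transcription factor at the end of the Hippo pathway, differed by 0.28 and the kinase Stk3 by -0.13 (edgeR adjusted p = 0.316 and 0.594). Of the 10 tested genes within 1 Mb of Mob3b, 0 passed and 1 did not overlap (all genes: 0.0748 and 16.3%). Their median log2 fold change was -0.03.

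Grik5 was the 1 called gene among neurotransmitter receptors. It encodes a kainate receptor subunit (GluK5) that forms channels together with other kainate subunits, and lies at chr7:25009849-25072346. Wild-type libraries stood at 114, 133 and 118 CPM and treated P301S at 172, 165 and 162, so the groups were well apart. The rise was 1.37-fold (log2 fold change 0.45 ± 0.07 SE, edgeR adjusted p = 0.045). Scrambled-peptide libraries, at 135, 150 and 130 CPM, overlapped with wild type and lay below all 3 Cdk5i libraries. The difference between the peptides, 0.27 (95% interval 0.11 to 0.43), did not pass (edgeR adjusted p = 0.640).

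Gas2 and Gm27008 were likewise lower than in both other groups in all 3 Cdk5i libraries. Gas2, a protein that binds actin and microtubules, lies at chr7:51862015-51994975. It stood at 84.9, 88.1 and 89.4 CPM in wild type and at 65.6, 62.0 and 68.2 in treated P301S, or -0.42 ± 0.06 on the log2 scale (edgeR adjusted p = 0.0354). With the scrambled peptide it was at 75.6 to 84.7 CPM, between the others, and the difference between the peptides of -0.28 (95% interval -0.41 to -0.14) did not pass (edgeR adjusted p = 0.491). Gm27008 is transcribed at chr3:106934382-107093894 from the strand opposite to the potassium channel gene Kcna3 and to AI504432. Its values were 15.3, 17.8 and 16 CPM in wild type and 8.92, 8.72 and 10.8 in treated P301S. It fell by 0.79 ± 0.11 on the log2 scale (edgeR adjusted p = 0.0288), and scrambled-peptide libraries at 14.1 to 17.0 CPM overlapped with wild type. The peptides differed by -0.73 for this RNA (95% interval -0.98 to -0.49), which did not pass (edgeR adjusted p = 0.0843). AI504432 on the other strand, at 15.7 to 17.4 CPM in wild type and 10.2 to 12.6 in treated P301S, gave -0.57 on the log2 scale, with an adjusted p of 0.0899 in edgeR.

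The remaining 8 called genes had values in the scrambled-peptide libraries on the same side of wild type as in the Cdk5i libraries. Their scrambled-peptide and wild-type groups did not overlap. Of all genes 16.3% did not overlap in that comparison, counting either direction and whatever the side in the Cdk5i libraries. Both comparisons use the same 3 wild-type libraries, so their values are not independent. For 6 of the 12 genes scrambled peptide against wild type also passed, in a comparison that called 13 genes (0.081%), and for the 8 the direct comparison of the peptides did not pass. These 8 are described next by place and kind.

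**Figure D2:**
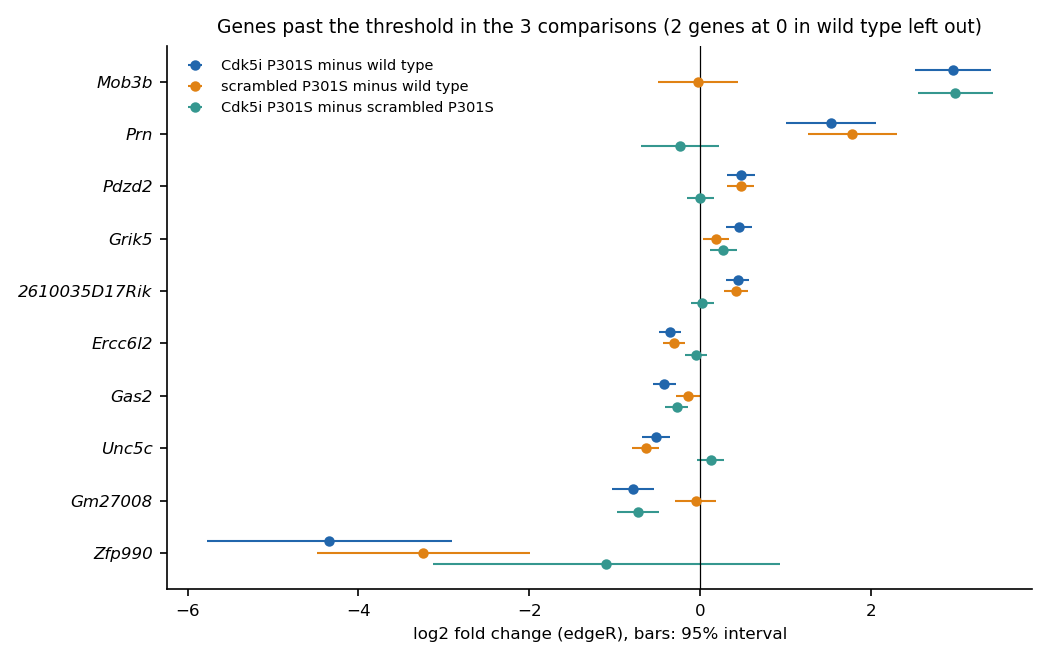
Log2 fold change in edgeR (horizontal axis) with its 95% interval for 10 called genes in 3 comparisons: Cdk5i P301S minus wild type (blue), scrambled P301S minus wild type (orange) and Cdk5i minus scrambled P301S (green). For Prn, Pdzd2, 2610035D17Rik, Ercc6l2, Unc5c and Zfp990 the interval of the difference between the peptides includes 0, and for Mob3b, Grik5, Gas2 and Gm27008 it does not.

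A pair of called genes lay beside each other at the prion locus on chromosome 2. Prnp, the prion protein gene, is of background interest because its promoter drives the tau transgene of some P301S lines. The labels do not say whether this line was one of them. Lamr1-ps1, a processed pseudogene of the ribosomal protein gene Rpsa at chr2:131904086-131904959, had 0 counts in all 3 wild-type libraries and 57, 60 and 52 counts in treated P301S (2.54, 2.28 and 1.98 CPM). With 3 counts in all set as the floor for wild type, it was at least 48.8-fold higher (edgeR adjusted p = 0.000524), and scrambled-peptide libraries held 74, 73 and 50 counts. Floors and counting intervals cover counting error only, since reads copied by PCR are not independent molecules.

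Reads of Lamr1-ps1 can be told from those of its parent. Over 841 aligned bases it shared 78.4% with the Rpsa transcript, and 0 of its 835 windows of 40 bases, the length of a read, occurred in a transcript of another gene (GENCODE M21 transcripts). The window with the most differences is printed with the bases that differ from Rpsa in capitals, at chr2:131904621-131904660 on the plus strand:
Lamr1-ps1: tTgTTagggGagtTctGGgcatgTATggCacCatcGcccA
It differs at 14 of its 40 bases.

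Prn starts 5.0 kb beyond the end of Lamr1-ps1, at chr2:131909957-131956130, and its transcripts run through Prnp and Prnd, the gene of the prion-like protein doppel. It stood at 1.33, 1.31 and 1.04 CPM in wild type and at 2.99, 4.91 and 2.75 in treated P301S, 2.90-fold higher (log2 fold change 1.53 ± 0.24, edgeR adjusted p = 0.0425). Scrambled-peptide libraries were at 3.81 to 4.43 CPM. Of the length of Prn 73.1% is shared with Prnp and Prnd, which lie on its strand, as are 95.8% of its 40-base windows. Counting at the level of whole genes leaves out reads in such shared stretches, and Prnp itself was listed at 0 to 2 counts in these libraries, so neither gene's level is known from these tables. The other tested genes within 1 Mb of Lamr1-ps1 showed no common shift: of 35, Prn included, 16 were higher and 19 lower, with a median log2 fold change of -0.01.

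On chromosome 3 a second pair lay 512 kb apart. The long non-coding RNA 4930590L14Rik (chr3:140951876-140953247) had 0 counts in all wild-type libraries and 17, 14 and 20 in treated P301S, at least 14.7-fold higher with the same floor of 3 counts (edgeR adjusted p = 0.0238). In scrambled-peptide libraries it had 20, 15 and 17 counts. Unc5c (chr3:141465216-141834924), a receptor for the guidance cue netrin-1 that mediates repulsion of axons, stood at 801, 738 and 713 CPM in wild type and at 487, 558 and 528 in treated P301S. All 3 treated values were below all wild-type values, and the level was 0.70-fold that of wild type (log2 fold change -0.52 ± 0.07, edgeR adjusted p = 0.0288). Scrambled-peptide libraries stood at 468, 481 and 497 CPM.

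Most tested genes to the right of 4930590L14Rik had values below wild type. Of 14 that start within 3 Mb, 13 had a log2 fold change below 0 in treated P301S, with a median of -0.29 and a range of -1.08 to 0.65, and in 5 all treated libraries were below wild type (8.22% of all genes). With the scrambled peptide 12 of the 14 were below 0, with a median of -0.13. The 6 that start between 2 and 3 Mb had a median of -0.08, with Gm33651 at 0.65. Of the 8 within 2 Mb, Unc5c among them, 8 had a log2 fold change below 0 in treated P301S, from -0.57 to -0.14, with a median of -0.39, and in 4 the groups did not overlap. The 8 include Gm15688 and Gm15689, antisense RNAs that overlap Unc5c on the other strand. Beside Unc5c, the 4 were Pdlim5 (-0.34), a scaffold of the actin cytoskeleton, Gtf2b (-0.22), a general transcription factor, and Pkn2 (-0.14), a protein kinase. Those 3 did not pass by themselves (edgeR adjusted p = 0.299 for Pdlim5, 0.386 for Gtf2b and 0.435 for Pkn2). Bmpr1b, a receptor of bone morphogenetic proteins next to Unc5c, had a log2 fold change of -0.49 and overlapping groups. In scrambled peptide against wild type the same 8 also had values below 0, with a median of -0.36 and 4 that did not overlap (downward in 8.03% of all genes). To the left, 7 of 11 genes tested within 3 Mb were below 0, with a median of -0.04 and 0 with groups apart, and the nearest of them starts 1534 kb away. The end at 2 Mb and both windows were set after the values had been seen and are a description.

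**Figure D3:**
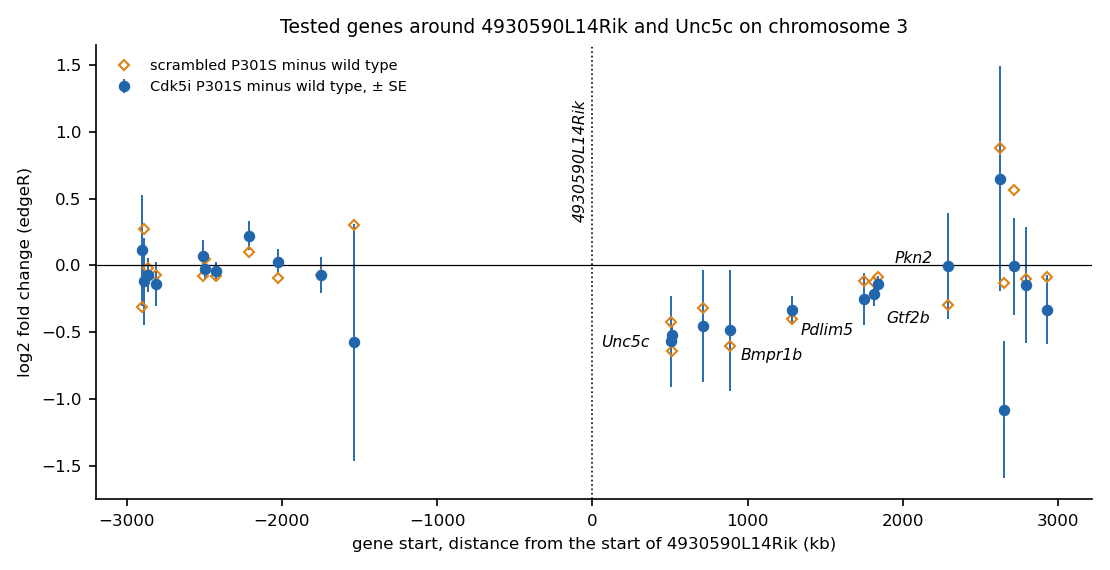
Log2 fold change (edgeR, vertical axis) of tested genes on chromosome 3 by the distance of their start from that of 4930590L14Rik in kb (horizontal axis), for Cdk5i P301S minus wild type (filled, ± SE) and scrambled P301S minus wild type (open diamonds). The 8 genes within 2000 kb to the right all lie below 0 in both comparisons, those beyond 2000 kb lie on both sides of 0, and 4930590L14Rik itself, at 0 counts in wild type, is marked by the dotted line.

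Pdzd2 and 2610035D17Rik were the other 2 higher genes. Pdzd2, a large protein with several PDZ domains (chr15:12359711-12739924), stood at 320, 351 and 333 CPM in wild type and at 483, 469 and 443 in treated P301S. Its level was 1.39-fold that of wild type (log2 fold change 0.47 ± 0.07, edgeR adjusted p = 0.0415), with 435 to 509 CPM under the scrambled peptide and a difference between the peptides of 0.00 (95% interval -0.16 to 0.16). The long non-coding RNA 2610035D17Rik (chr11:113043895-113201838) was at 58.6, 54.8 and 56.9 CPM in wild type and at 72.9, 82.6 and 75.1 in treated P301S, or 0.44 ± 0.06 on the log2 scale (edgeR adjusted p = 0.0288). It was at 73.5 to 77.5 CPM under the scrambled peptide.

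Ercc6l2 and Zfp990 were lower in both P301S groups. Ercc6l2, a helicase-like protein with a role in the repair of DNA breaks (chr13:63815240-63900302), stood at 65.0, 62.7 and 61.9 CPM in wild type and at 51.2, 48.3 and 48.2 in treated P301S. It fell by 0.36 ± 0.06 on the log2 scale (edgeR adjusted p = 0.0484). Scrambled-peptide libraries were at 49.4 to 52.8 CPM, where the test against wild type did not pass (edgeR adjusted p = 0.124). Zfp990, one of a family of zinc finger genes clustered on chromosome 4 (chr4:145510759-145539188), had 19, 19 and 39 counts in wild type and 2, 1 and 1 in treated P301S. The ratio of the summed counts, scaled by library size, was 0.0448 with an exact 95% interval of 0.0119 to 0.119 for counting error, and edgeR's adjusted p was 0.0354. With the scrambled peptide it had 7, 1 and 1 counts, a ratio of 0.102 (0.0449 to 0.204). Of its 40-base windows 39.4% also occur in transcripts of other genes, such as Zfp987 and Zfp534, so the split of reads among these relatives is uncertain.

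Just above the threshold stood 10 further genes with groups that did not overlap and adjusted p of 0.0627 to 0.121 in edgeR. Baiap2 (IRSp53), an organiser of actin in dendritic spines, was at 197, 203 and 220 CPM in wild type and 286, 276 and 261 in treated P301S, a log2 fold change of 0.41 ± 0.07. The endolysosomal cation channel Tpcn1 (0.45), the potassium channel subunit Kcnab2 (0.34), the neuronal calcium sensor Cabp1 (0.41), the acyl-CoA thioesterase Acot7 (0.35), Bcr (0.37) and Bcl2l15 (0.61) also had positive log2 fold changes. The non-coding RNAs Gm29865 (-1.19) and Gm12371 (-0.68) had negative ones, as did AI504432. None of these 10 is counted as changed.

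Genes that passed in the other 2 comparisons but not in this one fell in 2 sorts. Gm9866, a non-coding RNA that passed between the peptides and between scrambled peptide and wild type, was at 59.7, 63.8 and 63.5 CPM in wild type, 62.1, 61.6 and 66.3 in treated P301S and 34.7, 31.7 and 40.3 under the scrambled peptide. Its difference from wild type in treated P301S was 0.02 (95% interval -0.15 to 0.20, edgeR adjusted p = 0.946). Zfp951, Dcdc2c and 2410018L13Rik likewise had log2 fold changes of -0.07, -0.05 and -0.06 (edgeR adjusted p = 0.909, 0.956 and 0.957), with wider intervals that reached -0.43, -0.49 and -0.63. Each of them passed as lower with the scrambled peptide than in wild type (-1.08, -1.34 and -2.06). Between the peptides they did not pass (edgeR adjusted p = 0.114, 0.114 and 0.0843). Gm9866, Dcdc2c and 2410018L13Rik lie on chromosome 12, from chr12:27050950, chr12:28437795 and chr12:22953997. The other sort kept a sizeable estimate. Ccnd3 (cyclin D3, a partner of cell cycle kinases) was at 3.13, 2.57 and 2.36 CPM in wild type and 4.15, 4.34 and 4.69 in treated P301S, or 0.71 ± 0.16 on the log2 scale (edgeR adjusted p = 0.138), beside 5.39 to 6.51 CPM under the scrambled peptide. Npsr1, the neuropeptide S receptor, and Pdzrn4 had -0.49 and -0.32 (edgeR adjusted p = 0.124 and 0.121).

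The genes the study turns on differed little. Mapt, the mouse tau gene, stood at 194, 211 and 206 CPM in wild type and at 237, 241 and 230 in treated P301S. The groups did not overlap, but the log2 fold change of 0.21 ± 0.06 did not pass (edgeR adjusted p = 0.251), and reads of a human transgene that resemble the mouse gene cannot be told apart here. Cdk5 was at 16.2, 15.2 and 16.1 CPM in wild type and 14.8, 18.7 and 16.6 in treated P301S, a log2 fold change of 0.07 (95% interval -0.18 to 0.33). Cdk5r1, which encodes p35, had -0.14 (95% interval -0.31 to 0.03), and its sister Cdk5r2 was at 0 counts in every library. Counting can leave out reads, as at Prnp, so these counts do not show whether Cdk5r2 was transcribed. Of 16 tested genes of Cdk5, its activators and calpain, 0 passed, 10 were above 0 and the median was 0.03. Beside Ccnd3, these held Cables1 (0.19) and Cdk5rap3 (0.32), both of which bind Cdk5 or its activators, and Ccny, a cyclin of related kinases (-0.05), none past the threshold (edgeR adjusted p = 0.324, 0.416 and 0.797).

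Among 38 tested genes of tau, microtubule proteins and tau kinases 0 passed. The groups did not overlap in 17 of them, 11 above wild type and 6 below, against 16.3% of all genes, and 26 of 38 were above 0 with a median of 0.04 (all genes: 48.8% above 0, median -0.01). Ttbk1, a tau-tubulin kinase, stood at 46.3, 49.7 and 50.4 CPM in wild type and at 57.4, 62.5 and 54.3 in treated P301S (log2 fold change 0.25 ± 0.07, edgeR adjusted p = 0.235). Mark3, of the family of kinases that phosphorylate tau in its repeats, was at 89.9 to 93.3 CPM against 101 to 109 (0.19, adjusted p = 0.250 in edgeR). Ppp3cb, a catalytic subunit of the phosphatase calcineurin, was at 103 to 117 CPM against 94.9 to 96.6 (-0.22, adjusted p = 0.243 in edgeR). Dclk1, the most abundant in CPM of the list, had 0.05.

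Genes of inhibitory receptors mostly had values below wild type. Of 24 tested genes of GABA and glycine receptors and the inhibitory synapse 17 were below 0, the median was -0.16, and in 11 all treated libraries were below all wild-type ones, while in 0 they were above. Across all genes 8.22% were so separated downward. No member passed the threshold. Gphn, the gephyrin scaffold that anchors these receptors at synapses, stood at 888, 808 and 1209 CPM in wild type and at 691, 632 and 763 in treated P301S (log2 fold change -0.48 ± 0.13, edgeR adjusted p = 0.243). Gabra3, a GABA-A receptor subunit, was at 85.2 to 96.8 CPM against 75.0 to 82.0 (-0.24, adjusted p = 0.235 in edgeR). In scrambled-peptide libraries, with the same controls, 18 of the 24 were below wild type with a median of -0.13, and between the peptides 12 were lower and 12 higher (all genes: 47.2% higher). The marker genes of inhibitory neurons themselves were evenly placed, 10 above and 10 below 0 of 20 with a median of 0.00, and their summed level ranged from 3113 to 3653 CPM in wild type and from 3205 to 3488 in treated P301S.

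At the excitatory synapse the list was balanced, 24 members above and 24 below 0 of 48, with a median of -0.01. Beside Grik5, which passed, Dlg4 (PSD-95, the main scaffold of the postsynaptic density) stood at 63.1, 67.4 and 69.4 CPM in wild type and at 83.2, 91.0 and 76.7 in treated P301S (0.33 ± 0.08, edgeR adjusted p = 0.186). Its partner Dlgap4 was at 206 to 230 CPM against 248 to 298 (0.29, adjusted p = 0.239 in edgeR). The abundant neurexin gene Nrxn3 had -0.02. Of the 48 the groups did not overlap in 9 upward and 6 downward (all genes: 8.03 and 8.22%). On the presynaptic side 19 of 40 were above 0 and 0 passed. Syn3 (synapsin III) had a log2 fold change of 0.24, the vesicle protein gene Syt4 of -0.37 and the calcium sensor Syt1 of -0.14 (edgeR adjusted p = 0.313, 0.346 and 0.624).

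**Figure D4:**
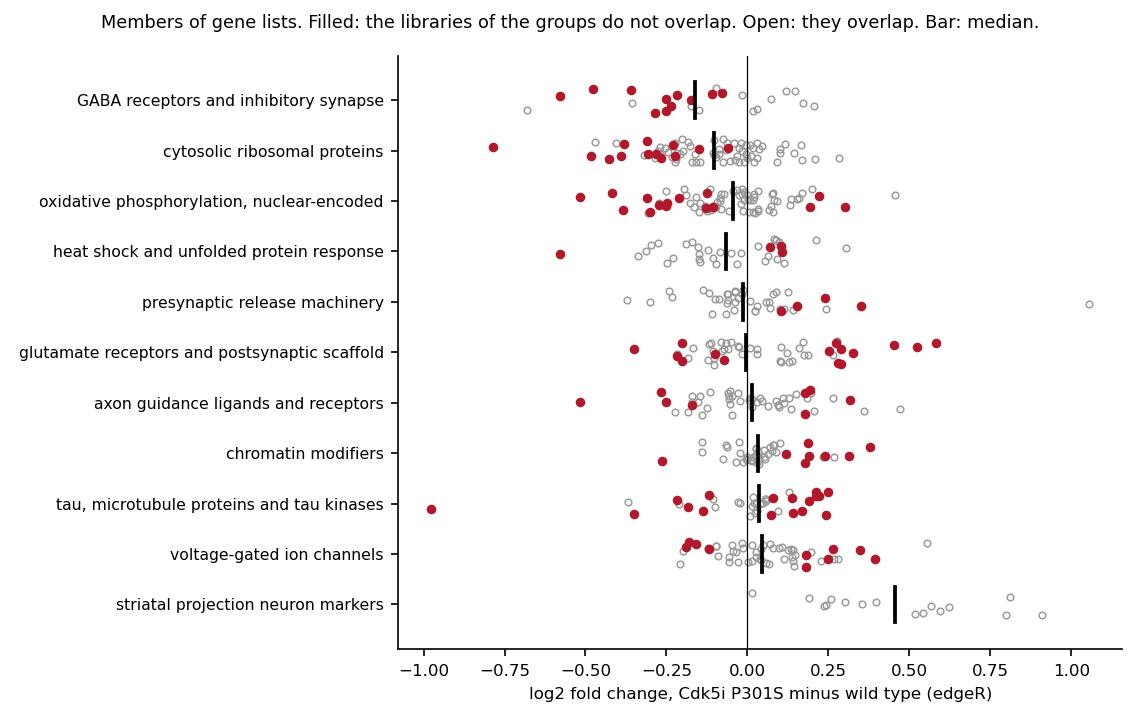
Log2 fold change (edgeR, horizontal axis) of each tested member of 11 gene lists, Cdk5i P301S minus wild type; filled dots are genes whose 2 groups of libraries do not overlap, open dots those that overlap, and bars are medians. In the GABA list 11 of 24 dots are filled and all lie below 0, whereas all 16 striatal markers lie above 0 and none is filled.

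Voltage-gated ion channels had 34 of 52 members above 0, with a median of 0.04 and 0 past the threshold. Cacna1h, a low-threshold calcium channel, stood at 68.9, 83.3 and 72.9 CPM in wild type and at 103, 98.1 and 95.5 in treated P301S (0.40 ± 0.08, edgeR adjusted p = 0.121). The calcium channel subunit Cacnb1 was at 36.6 to 38.1 CPM against 43.4 to 51.7 (0.35, adjusted p = 0.121 in edgeR) and the calcium-activated potassium channel Kcnn3 at 101 to 113 against 121 to 137 (0.26, adjusted p = 0.235 in edgeR). Kcnip4, a partner of A-type potassium channels, had -0.05. Axon guidance genes were 28 above and 22 below 0 of 50, with Unc5c the 1 that passed. Slit2, a repellent ligand of Robo receptors, was at 245, 242 and 215 CPM against 188, 205 and 192 (-0.27 ± 0.08, edgeR adjusted p = 0.293), the ephrin receptor Epha5 had -0.18 and Slit3 0.09.

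Ribosomal protein genes mostly had values below wild type. Of 75 cytosolic ribosomal protein genes tested 58 were below 0, with a median of -0.10, 13 separated downward and 0 upward (all genes: 8.22 and 8.03%), and 0 passed. Rpl29 was at 1.75, 1.92 and 2.09 CPM in wild type and at 0.758, 1.48 and 1.07 in treated P301S (-0.78 ± 0.26), Rps6 at 5.26 to 5.62 against 4.06 to 4.27 (-0.38) and Rps12 at 4.07 to 5.35 against 2.98 to 3.66 (-0.48), with edgeR adjusted p of 0.315, 0.331 and 0.384. Rpl11, the most abundant in CPM, had 0.10. With the scrambled peptide 44 of the 75 were above wild type, median 0.03, where 51.7% of all genes were. Nuclear genes of oxidative phosphorylation were below 0 in 46 of 75 with a median of -0.04. They were separated downward in 12 and upward in 3 (all genes: 8.22 and 8.03%). Cox5b, a subunit of cytochrome c oxidase, stood at 4.45, 4.44 and 4.49 CPM in wild type, 2.90, 3.01 and 3.43 in treated P301S and 4.95 to 5.79 under the scrambled peptide (log2 fold change from wild type -0.52 ± 0.14, edgeR adjusted p = 0.239). Ndufa4 had -0.31, Cox7c -0.42 and Ndufs4 -0.01.

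Stress and immune genes held a few low values and 0 that passed. In the heat shock and unfolded protein response 20 of 34 were below 0 (median -0.07). Hspa5 (BiP), the main chaperone of the endoplasmic reticulum, stood at 72.9, 62.8 and 83.9 CPM in wild type and at 50.8, 55.5 and 40.7 in treated P301S (-0.58 ± 0.16, edgeR adjusted p = 0.281). Calreticulin (Calr) had -0.31, Hspa13 -0.27 and Hspa12a 0.11. Of 20 interferon, MHC and complement genes 10 were above and 10 below 0. Tap1 and Tap2, which together carry peptides to MHC class I, were at 0.454 to 0.561 CPM against 0.153 to 0.357 and at 1.52 to 1.68 against 0.875 to 1.16 (log2 fold changes -0.92 and -0.70, edgeR adjusted p = 0.435 and 0.315). Stat2 had 0.24 and Nfkb1 0.05. Among 44 chromatin modifiers 31 were above 0, median 0.03, and 0 passed. Kdm6a, a histone H3K27 demethylase, was at 110, 104 and 99.0 CPM against 91.2, 86.7 and 82.8 (-0.26 ± 0.06, edgeR adjusted p = 0.169), while its relative Kdm6b had 0.38, the deacetylase Sirt2 0.24 and Hdac9 -0.08.

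Markers of striatal projection neurons varied between libraries of 1 group. All 16 tested had a log2 fold change above 0 (all genes: 48.8%), with a median of 0.46. In 0 of 16 were the groups apart (all genes: 16.3%). With the scrambled peptide 14 of the 16 markers were above wild type, with a median of 0.30. Their summed level was 2411, 3854 and 2914 CPM in wild type and 4813, 3434 and 3676 in treated P301S, so the 2 groups overlapped. Ppp1r1b (DARPP-32, a phosphatase regulator of dopamine-responsive neurons) stood at 6.21, 13.1 and 12.2 CPM against 25.1, 13.1 and 21.2 (0.91 ± 0.37, edgeR adjusted p = 0.441). The dopamine receptor Drd2 had 0.81, Adcy5 0.60 and Pde10a 0.26. Of 19 markers of excitatory cortical neurons 12 were below 0 (median -0.13), with summed levels of 2288 to 2387 CPM in wild type and 2176 to 2654 in treated P301S. Bcl11b, which marks deep-layer and also striatal neurons, had 0.50, Camk2a 0.24 and Neurod6 -0.57. The part of these markers in the other results was not tested. Glial and vascular markers overlapped in summed level: oligodendrocyte 170 to 178 CPM against 169 to 213, astrocyte 485 to 575 against 371 to 537, microglial 59.7 to 165 against 62.3 to 139, and endothelial and pericyte 8.62 to 10.4 against 7.67 to 10.9, in wild type and treated P301S.

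Base composition moved with the comparison over all genes. Genes were sorted into 5 equal bins by the GC content of their longest transcript. That sequence leaves out introns, whereas the counts cover exons and introns, so it is not the GC content of the reads. In the lowest bin 28.3% of genes were above 0, 91 separated upward and 507 downward. In the highest bin 65.6% were above 0, 503 separated upward and 114 downward. The median log2 fold change went from -0.08 to 0.07 over the bins, and the correlation across 16029 genes, which are not independent, was 0.176. Each library's highest minus lowest bin was -0.13, -0.10 and -0.08 in wild type and -0.01, 0.11 and 0.04 in treated P301S, which do not overlap, beside 0.04, 0.16 and -0.02 with the scrambled peptide. The GABA list had a median GC content of 43.0%, against 48.9% over all genes, and the ribosomal list 51.0%. With each library's trend with GC taken out, an alternative added after the data had been seen, 3 of the 12 genes passed, Lamr1-ps1, Mob3b and 4930590L14Rik, and the log2 medians were -0.11 for the GABA list (18 of 24 below 0) and -0.12 for the ribosomal list. Among the 9 that did not pass in that fit, Unc5c had a log2 fold change of -0.47 (-0.52 without the offset, edgeR adjusted p = 0.0540 with it) and Grik5 of 0.36 (0.45 without, adjusted p = 0.244 with it in edgeR). Those were the lowest and the highest adjusted p of the 9 in that fit. The part of base composition in the calls was not tested. In the same fit the list of tau, microtubule proteins and tau kinases had 21 of 38 above 0, against 26 without the offset. Its median went from 0.04 to 0.01, that of chromatin modifiers from 0.03 to 0.02, and that of voltage-gated ion channels stayed at 0.04. Genes lower at an unadjusted p below 0.05 in edgeR went from 9 to 5 in the GABA list and from 8 to 10 in the ribosomal list.

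**Figure D5:**
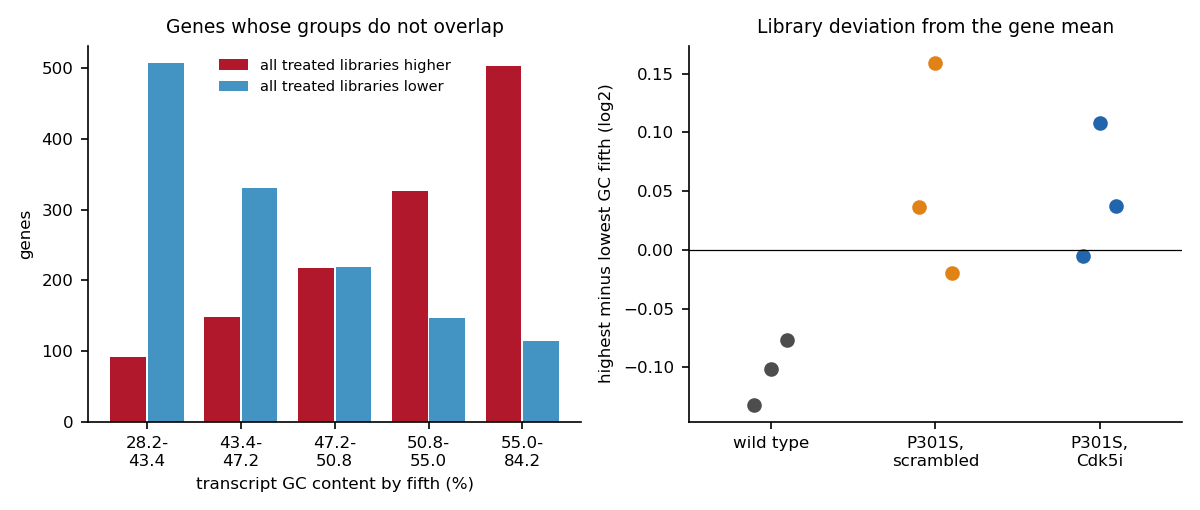
Left, number of genes whose treated libraries all lie above (red) or all below (blue) the wild-type libraries, in 5 equal bins of transcript GC content in percent; right, each library's median deviation from the gene mean in the highest minus the lowest GC bin, on the log2 scale. Upward genes go from 91 to 503 and downward genes from 507 to 114 over the bins, and the 3 wild-type libraries lie below the other 6.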

How the data were processed

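Each deposited table gives, for 1 library, raw counts of read pairs that fell in each gene, with no normalization. The authors made them with featureCounts 2.0.0 over whole genes (exons and introns), in pairs and on the reverse strand, with Ensembl release 102 (per the file headers). Per the submitters' processing notes the build was GRCm38, and DESeq2 1.36.0, STAR 2.7.9a and Subread 2.0.0 are named with no role. RNA came from sorted nuclei through a kit for fixed tissue and a stranded total RNA kit for low input, with reads of 40 bases, per the labels' protocols.

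Genes kept by filterByExpr (minimum count 10) numbered 16046 of 55401. One edgeR 4.0.16 quasi-likelihood model (R 4.3.3, TMM, robust) held all 9 libraries in 3 groups, with 6 residual degrees of freedom, and p-values were adjusted by Benjamini-Hochberg over all genes at 0.05. No pair of replicates agreed within sampling noise (their chi-square was 8.82 to 26 per gene). The median standard error was 0.138 on the log2 scale. GC content came from GENCODE M21 transcripts.

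The genes described and the 31 lists (953 symbols, 950 in the files, 864 tested) were chosen with earlier results of these data known. Named were all genes past the threshold here or in the other 2 comparisons, the next 10 with groups apart, Mapt, Prnp, Prn, Cdk5 and Cdk5r1, and in each list described the 3 lowest p-values and the most abundant member. Some genes that this rule names are not reported here. Tmem119, Cldn5, Pecam1, Aqp4, Mbp, Rbfox3, Cdk5r2, Kcna3, C9orf72 and the neighbours of Unc5c were named after their values were seen. Lists are described by counts without a test. Alternatives were DESeq2 1.42.0, limma-voom (limma 3.58.1), other scaling and filters, fewer groups, non-robust dispersion, a replicate block, each library left out, and a GC offset.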

Additional observations from a re-analysis of the deposited data

How the results depend on the processing

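The 12 genes past the threshold between Cdk5i-treated P301S and wild type (7 rising, 5 falling) became 10 with limma-voom, 11 with DESeq2's size factors and 12 without ribosomal RNA and mitochondrial genes. DESeq2 gave 114 (79 and 35), 8 of the 12 among them and the other 4 without an adjusted p. Without a filter on low counts 408 passed (254 and 154), the 12 among them and 11 outside the genes tested before. A filter of 50 counts gave 6 (3 and 3), a fit of only the groups compared 2 (2 and 0) and non-robust dispersion 3 (3 and 0). The replicate block gave 2 (2 and 0). Same-numbered libraries of wild type and Cdk5i did not deviate together (r = -0.175, -0.308 and 0.00313). Deviations from means of 3 libraries cannot exclude pairing, and the labels do not state any. A GC offset, added after the data had been seen, gave 3 (3 and 0). With 1 library left out the count was 2 to 14 (rising 2 to 9, falling 0 to 5). It was 4, 7 and 2 without wild-type replicates 1, 2 and 3, and 3, 6 and 5 without Cdk5i replicates 1, 2 and 3. Without scrambled-peptide replicates 1, 2 and 3 it was 14, 2 and 7. Scrambled peptide against wild type, with 13, gave 72 with DESeq2, 318 without the filter, 6 with the filter of 50, 6 with non-robust dispersion, 2 with the replicate block, 7 with the GC offset and 2 to 17 with 1 library left out. Between the peptides, with 2, DESeq2 gave 27, no filter 159, and leaving out a library 2 to 18. The cause of these moves was not tested.

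The called genes passed in 18 of 18 settings for Lamr1-ps1, 19 of 19 for Mob3b, 10 of 17 for 4930590L14Rik, 9 of 19 for Unc5c and Gm27008, 8 of 19 for 2610035D17Rik, 7 of 19 for Gas2, 6 of 19 for Pdzd2 and Grik5, 6 of 17 for Zfp990, 5 of 18 for Prn and 3 of 19 for Ercc6l2, with unchanged sign. Signs turned for genes past no threshold here. Leaving out a library gave log2 fold changes of -0.014 to 0.16 for Cdk5, -0.23 to 0.11 for 2410018L13Rik, -0.0057 to 0.044 for Gm9866, -0.20 to 0.13 for Dcdc2c, -0.0016 to 0.13 for Dclk1, -0.73 to 0.028 for Bmpr1b, -0.051 to 0.23 for Rpl11, -0.11 to 0.034 for Kcnip4, -0.066 to 0.046 for Ndufs4, -0.13 to 0.0066 for Hdac9 and -0.12 to 0.059 for Nrxn3. The GC offset gave 0.00055 for Zfp951, 0.035 for Kcnip4 and 0.044 for Ndufs4, which had 0.000992 without the filter. Gene lists with a median above 0 numbered 16 of 31, and 15 to 19 with 1 library left out. The median standard error of 0.138 limits what these libraries can show for a small change.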
